A study of Mus musculus with 4 samples.

Results

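The regions described here are 9660 RNA immunoprecipitation peaks that were listed in mouse liver with AAV-NAT10, had no counterpart in liver with AAV-GFP, and lay in genes that did have a peak with AAV-GFP. They were chosen by position alone: an AAV-NAT10 peak was taken when it shared no base with any AAV-GFP peak on its chromosome and when its gene name also occurred in the AAV-GFP list. Such peaks are called added peaks below. They made up 23.3% of the 41511 AAV-NAT10 peaks and 24.6% of the 39331 AAV-NAT10 peaks in genes with an AAV-GFP peak. The choice used the presence of peaks in both lists, so the counts that follow describe the lists and do not test the virus.

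Livers of male C57BL/6 mice that had received an adeno-associated virus (AAV) carrying NAT10, or GFP as the control, were profiled by RNA immunoprecipitation sequencing (RIP-seq). The AAV-NAT10 group had 1 immunoprecipitated (IP) library and 1 input library, and so did the AAV-GFP group. The labels name an antibody to a protein of interest or IgG, but also an ac4C library type, so the target of the antibody is not settled. Their protocol text names db/db and lean mice as the source of the RNA, which the sample titles do not, and the labels give neither age, dose, promoter nor the number of mice per library. Without replicates no difference between the viruses could be tested, and no p-value is given. Intervals beside shares are at 95% by the exact Clopper-Pearson method and hold counting error alone, and the depth of the libraries is unknown here. Differences in depth or in IP yield enter every count of peaks, and the lack of a listed peak does not mean that a gene was unbound.

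NAT10 is the acetyltransferase that writes N4-acetylcytidine (ac4C) into RNA, in ribosomal RNA together with small nucleolar RNAs, in transfer RNA with the adaptor THUMPD1, and, as reported in several systems, in messenger RNA. In RIP-seq, fragments that come down with an antibody are sequenced beside the input RNA, and a peak marks a stretch of transcript where the IP exceeds the background. AAV is a vector widely used to deliver genes to hepatocytes, the main cell type of the liver.

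The 5′ ends of transcripts under added peaks are the stretches whose sequence was at hand, and they are shown because ac4C has been described at cytidines that lead successive triplets, a pattern searched for here as the triplet CNN (N being any base) 4 times in a row, on both strands. An added peak covered the start of a RefSeq transcript of its gene in 408 of 7473 cases with a known strand (5.46%, interval 4.96 to 6.00), whereas 392 of 16927 AAV-NAT10 peaks of the same genes that overlapped an AAV-GFP peak did so (2.32%, 2.09 to 2.55). The share was 4.46% (3.74 to 5.27) for AAV-GFP peaks without counterpart in shared genes and 7.75% (6.50 to 9.16) for AAV-NAT10 peaks in genes without an AAV-GFP peak, so peaks without counterpart in general covered starts more often than overlapped ones. Over 404 starts printed to 30 bases, 69 held the pattern on the sense strand, among them 4 of the 26 starts of genes in the lists used below. Those 4 belong to Med13l, a Mediator subunit (chr5:118560719-118560748, plus strand), Rheb, the GTPase that activates mTORC1 (chr5:24842332-24842361, minus strand), Slc3a2, the heavy chain of several amino acid transporters (chr19:8713868-8713897, minus strand), and Socs3, an inhibitor of JAK-STAT signalling (chr11:117969337-117969366, minus strand). For comparison, 4 starts without the pattern on the sense strand are given, of genes described further on: Rxra, a nuclear receptor (chr2:27677201-27677230, plus strand), Hal, histidine ammonia-lyase (chr10:93488768-93488797, plus strand), Pik3r1, a regulatory subunit of PI3-kinase (chr13:101768188-101768217, minus strand), and Nr1i2, the pregnane X receptor (chr16:38294795-38294824, minus strand). Sequences are from RefSeq (GRCm38.p6), 5′ to 3′ from the transcript start, and capitals mark the run of triplets that begin with C.
Med13l: CGCCGCCGCCGCCCGgcccggcccgctccg
Rheb: CCGCGCCCGCCGCCGtgctctgtatgccgc
Slc3a2: cCCGCCGCCACACCCGCCCagcggcagaag
Socs3: cggcgggtcctggaggCCCCAGCTCCAAgc
Rxra: gcgcggcggaggcgcgggcggcgggtgcgc
Hal: gaaagggagagagagaacggggaaccctgg
Pik3r1: ggcgcctggcgctggagctgcgccgctcag
Nr1i2: cattggacctggggtgtactgtgggcaaga

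Over the first 50 bases of the starts that a peak covered in full, 113 of 409 starts under added peaks held the pattern on the sense strand (27.6%, 23.3 to 32.2) and 196 held it on the opposite strand (47.9%). Starts under the overlapped peaks of the same genes held it in 115 of 400 cases (28.8%, 24.4 to 33.5) on the sense strand and in 42.5% on the opposite strand. Across all 32851 RefSeq starts of the same length the shares were 21.1% and 28.98%. The median GC content was 66% under added peaks and 66% under overlapped peaks, against 56% over all starts. The starts under added peaks were thus as rich in G and C as those under the overlapped peaks, and the pattern was more frequent on the strand opposite to the transcript in all 3 sets.

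Added peaks were short and of modest enrichment beside the AAV-NAT10 peaks of the same genes that overlapped an AAV-GFP peak. Their median length was 145 bases (interquartile range 105 to 220), against 176 bases (127 to 412) for the 21985 overlapped peaks. The fold enrichment and the score of a peak are those the authors deposited: the fold is a linear ratio over background, and the score is −10 times log10 of the peak caller's p-value. The median fold was 5.05 (4.13 to 6.43) for added peaks and 7.39 (5.58 to 9.76) for overlapped peaks. The median score was 127.37 for added peaks and 435.11 for overlapped peaks, and 38.5% of added peaks, against 8.42% of overlapped peaks, scored under 100, where the lowest score listed was 50.

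A minority of added peaks was long or strong. Peaks of 1000 bases or more made up 3.43% of the added peaks (331 peaks; interval 3.07 to 3.81) and 14.2% of the overlapped peaks (13.8 to 14.7). Scores are held at 3100 or slightly above for the smallest p-values, and 127 added peaks in 102 genes reached this ceiling (1.31%), against 7.95% of the overlapped peaks. Among the 3981 host genes that held both kinds, the median fold of the added peaks was below that of the overlapped peaks in 3030, while in 747 an added peak had the highest fold of the gene. AAV-NAT10 peaks in genes without any AAV-GFP peak had a median fold of 4.53, close to that of the added peaks, but were longer, with a median of 376 bases (163 to 850).

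**Figure D1:**
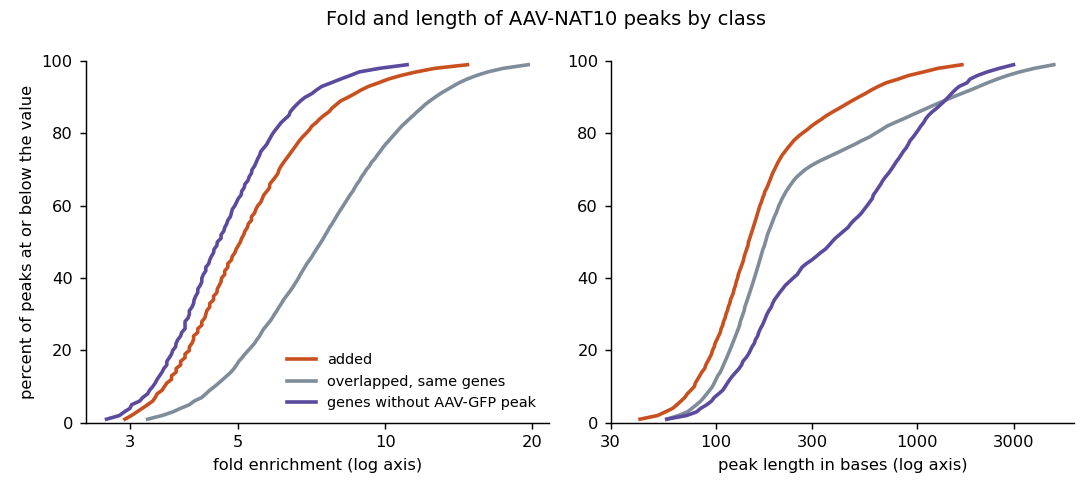
Cumulative distributions of the deposited fold enrichment (left, log axis) and of the peak length in bases (right, log axis), from the percentiles 1 to 99 of each class of AAV-NAT10 peaks. Added peaks lie left of the overlapped peaks of the same genes on both axes, with medians of 5.05 and 7.39 in fold and of 145 and 176 bases in length, and AAV-NAT10 peaks in genes without an AAV-GFP peak are the longest class at the median.

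The counterparts in the control list looked much the same. Within genes with a peak in both lists, 3818 of the 33515 AAV-GFP peaks shared no base with an AAV-NAT10 peak (11.4%). Those AAV-GFP peaks had a median length of 146 bases (104 to 226), and within their own list a median fold of 4.98 and a median score of 107.515. In both lists the peaks without counterpart were short and low-scoring, and the AAV-NAT10 list, with 41511 peaks against 33968 in the AAV-GFP list, held more of them. Folds of the lists set side by side here and below do not measure a change, since each belongs to its own pair of libraries.

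On the chromosome, most of the added peaks stood well clear of the nearest AAV-GFP peak of their gene. Distance along the spliced transcript was not computed. The median distance along the chromosome, introns included, was 3191 bases (interquartile range 1401 to 8721), 16.3% lay within 1000 bases and 22.2% over 10000 bases away. Only 25 added peaks lay within 100 bases. At the edge of the rule, the closest added peak was 9 bases from an AAV-GFP peak, in Aars2 (fold 4.61, score 66.9), and the least covered AAV-NAT10 peak outside the set shared 4 bases, in Cpne3 (fold 3.44, score 238.33). The farthest added peak was in Slc9a9, 543824 bases from the AAV-GFP peak. Of the 21985 overlapped peaks in the host genes, 19235 had exactly the same borders in both lists (87.5%), which shows that the lists cut peaks to a common set of borders; whether these are exons was not read from an annotation here, and a piece can carry the fold and score of a larger peak.

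The added peaks fell in 4197 of the 7081 genes with a peak in both lists (59.3%). In 1913 of these host genes there was 1 added peak, in 1855 there were 2 to 4, in 392 there were 5 to 9, and in 37 there were at least 10. The 429 genes with at least 5 added peaks held 2825 of them. Of the host genes that RefSeq lists, 3997 of 4007 are protein coding, and their median genomic length was 41609 bases, against 20285 bases for the genes with a peak in both lists and no added peak. Host genes were thus longer at the median than the other shared genes.

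Genes that were well covered with AAV-GFP held added peaks most often. An added peak was found in 44.2% of the genes with 1 AAV-GFP peak (990 of 2241; interval 42.1 to 46.3), in 60.7% of those with 3 to 4, in 81.2% of those with 10 to 19, and in 92.0% of those with 20 or more (183 of 199; 87.3 to 95.3). The same rise was seen the other way round: AAV-GFP peaks without counterpart occurred in 21.8% of genes with 1 AAV-NAT10 peak and in 69.4% of those with 20 or more. At gene level, 33.4% of the shared genes held added AAV-NAT10 peaks and no unmatched AAV-GFP peak, 9.7% held the reverse, and 25.8% held both kinds, so that 35.5% had some unmatched AAV-GFP peak. Within the host genes, added peaks outnumbered unmatched AAV-GFP peaks in 3270, equalled them in 639 and were fewer in 288.

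**Figure D2:**
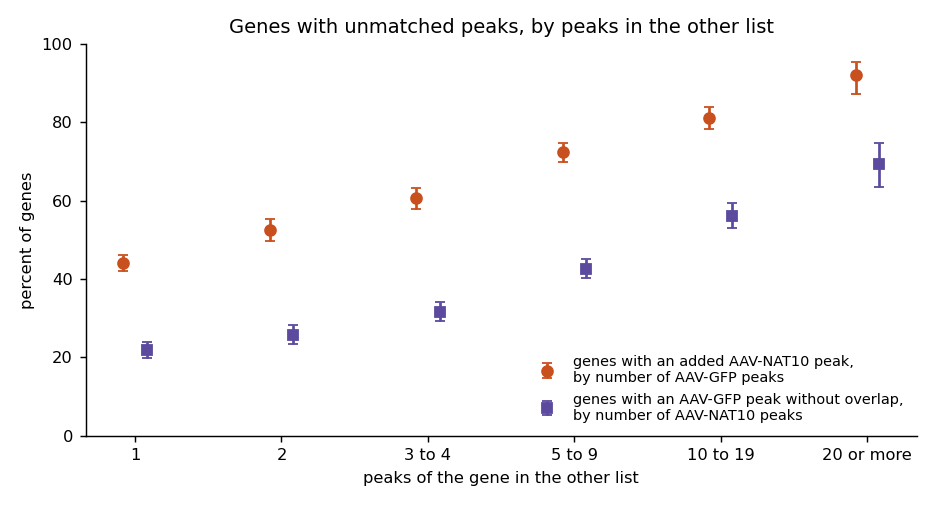
Percent of genes with at least 1 added AAV-NAT10 peak, by the number of AAV-GFP peaks of the gene (circles), and percent of genes with at least 1 AAV-GFP peak without overlap, by the number of AAV-NAT10 peaks of the gene (squares), among the 7081 genes with a peak in both lists. Bars are exact 95% intervals; both shares are higher in genes with more peaks in the other list, from 44.2% to 92.0% for added peaks and from 21.8% to 69.4% for AAV-GFP peaks without overlap.

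Along the gene, added peaks were spread more toward the 5′ end than the overlapped peaks of the same genes. Of the 7473 added peaks in genes whose strand is known, 10.97% had their centre in the 5′-most 10% of the gene (interval 10.3 to 11.7), against 5.11% of the 16927 overlapped peaks (4.78 to 5.45). At the other end, 13.8% of added peaks (13.0 to 14.6) and 20.5% of overlapped peaks (19.9 to 21.1) lay in the 3′-most 10%. The 5′ share was higher for short and for long pieces: 8.29% of added and 4.24% of overlapped peaks under 300 bases, and 23.4% of added and 7.23% of overlapped peaks of 300 bases or more. The AAV-GFP peaks without counterpart had 9.34% in the 5′-most 10% (8.31 to 10.4), so this placement was shared by the unmatched peaks of both lists.

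Relative to the AAV-GFP peaks of the gene, 2353 added peaks lay upstream of all of them (31.5%), 4207 between them (56.3%) and 913 downstream of all of them (12.2%). In genes with 1 AAV-GFP peak, 945 of 1385 added peaks were upstream (68.2%, 65.7 to 70.7) and 440 downstream. In genes with at least 5 AAV-GFP peaks, 80.7% of 3808 added peaks were between them. Unmatched AAV-GFP peaks lay upstream of all AAV-NAT10 peaks of their gene in 23.0% of 2935 cases (21.5 to 24.6), below the share of added peaks. Genes with 1 AAV-GFP peak can hold no added peak in between, and over genes with at least 2 AAV-GFP peaks 23.1% of added peaks lay upstream. The share of unmatched AAV-GFP peaks was not computed over genes with at least 2 AAV-NAT10 peaks. The 23.0% and the 23.1% are therefore not over like sets of genes.

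**Figure D3:**
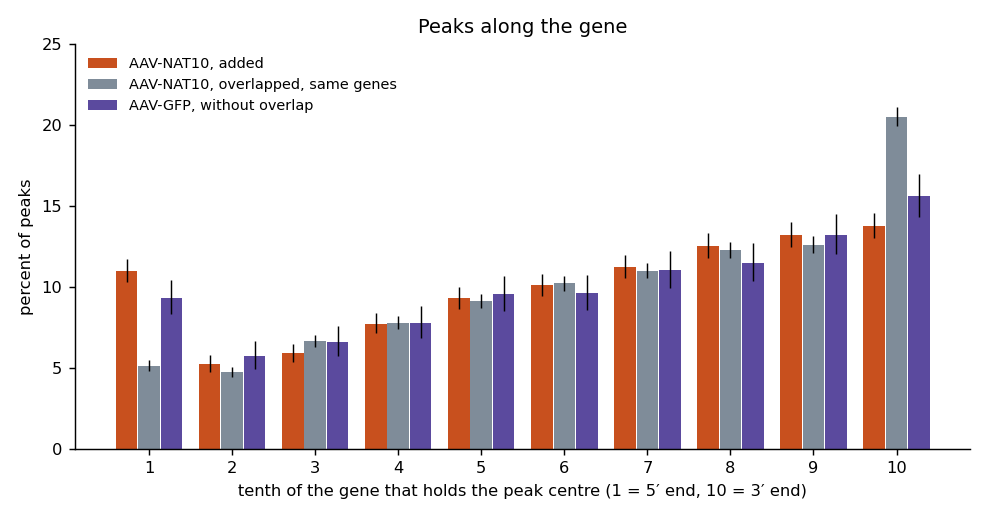
Percent of peaks whose centre falls in each of 10 equal parts of the RefSeq gene, from the 5′ to the 3′ end, for added AAV-NAT10 peaks, for the overlapped AAV-NAT10 peaks of the same genes and for AAV-GFP peaks without overlap. Bars are shares and lines exact 95% intervals; in the 5′-most part the added peaks stand at 10.97% and the overlapped peaks at 5.11%, and in the 3′-most part at 13.8% and 20.5%.

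Nat10, the gene the vector carries, held 2 added peaks among its 10 AAV-NAT10 peaks (chr2:103721258-103762954, minus strand). They had folds of 12.04 (134 bases) and 14.75 (63 bases), and both scored at the ceiling. Its 8 overlapped AAV-NAT10 peaks had folds between 7.10 and 17.52, and 7 of them scored at the ceiling. The exception was the piece at the 3′ end of the gene, which scored 67.09 and was the peak of fold 7.10. Its AAV-GFP match at the same borders scored 103.81 at fold 5.56. With AAV-GFP, Nat10 had 9 peaks with folds between 3.81 and 8.20, none of them at the ceiling, and 1 of the 9 had no AAV-NAT10 counterpart. The folds of both added peaks lay within the range of the other AAV-NAT10 peaks of the gene, with a median of 13.395 against 15.345 for the overlapped peaks. These lists do not separate RNA of the vector from RNA of the endogenous gene. Whether the 3′ piece differs from the other pieces because of the vector was not tested.

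Rxra encodes the retinoid X receptor alpha, the common partner of the liver's lipid, bile acid and xenobiotic sensing nuclear receptors, and it held a run of strongly enriched added peaks. Of its 11 AAV-NAT10 peaks (chr2:27676445-27763319, plus strand), 9 were added, in an unbroken run between its only 2 AAV-GFP peaks. In 5′ to 3′ order the folds of the 9 were 14.64, 10.96, 15.24, 27.82, 24.75, 24.43, 19.98, 11.40 and 7.57. Of these, 5 scored at the ceiling and the lowest score was 1718.63. The 2 outer AAV-NAT10 peaks, at the ends of the gene, had folds of 5.59 and 18.21, and the AAV-GFP peaks at the same borders had folds of 7.76 and 11.58. The body of Rxra was thus without any listed peak with AAV-GFP and carried 9 high-scoring peaks with AAV-NAT10, and no other gene had as many added peaks at the ceiling. The first of them holds the transcript start whose bases are printed above.

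No other nuclear receptor named here held as many. Of 25 receptors listed, 17 had a peak in both lists and 9 of these held an added peak (52.9%, interval 27.8 to 77.0), 22 added peaks in all with a median fold of 7.795, against 59.3% of all shared genes; Rxra is among the 9 and supplied 9 of the 22 peaks. Nr1d2, the clock repressor Rev-erb beta, had 3 added peaks of 6 (folds 7.22 to 9.29), and Nr1i2, the xenobiotic receptor named above, 2 of 4 (7.81 at its 5′ end and 4.97 further in), both upstream of its 2 AAV-GFP peaks. Rara and Nr2f2, which had 7 and 3 AAV-GFP peaks, had none.

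Igf2r, the mannose 6-phosphate receptor that clears insulin-like growth factor 2 and sorts lysosomal enzymes, was tied for the highest number of added peaks. Of its 20 AAV-NAT10 peaks (chr17:12682406-12769706, minus strand), 19 were added, 18 of them in a row between the overlapped peak and the 3′ end of the gene. Their folds lay between 3.12 and 6.75, with a median of 4.76, and none scored at the ceiling. The only AAV-GFP peak of Igf2r had a fold of 4.68 and the AAV-NAT10 peak over it 5.64. Unlike in Rxra, the added peaks of Igf2r were of the same modest fold as the peak that was there with AAV-GFP.

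The growth hormone and Igf1 axis was mixed. Added peaks occurred in 5 of the 9 members with a peak in both lists (16 listed), Igf2r included, beside 59.3% of all shared genes. Stat5a, a transcription factor that carries the growth hormone signal, held 6 in a row of 7 AAV-NAT10 peaks (folds 5.32 to 7.71) upstream of its only AAV-GFP peak, at the 3′ end (fold 3.30, beside 3.32 for the AAV-NAT10 peak there). Jak2, the kinase of the growth hormone receptor, had 3 of 17 (3.26 to 4.84). Its close relative Stat5b, with 8 AAV-GFP peaks, had none, nor had Cish and Igfbp1.

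**Figure D4:**
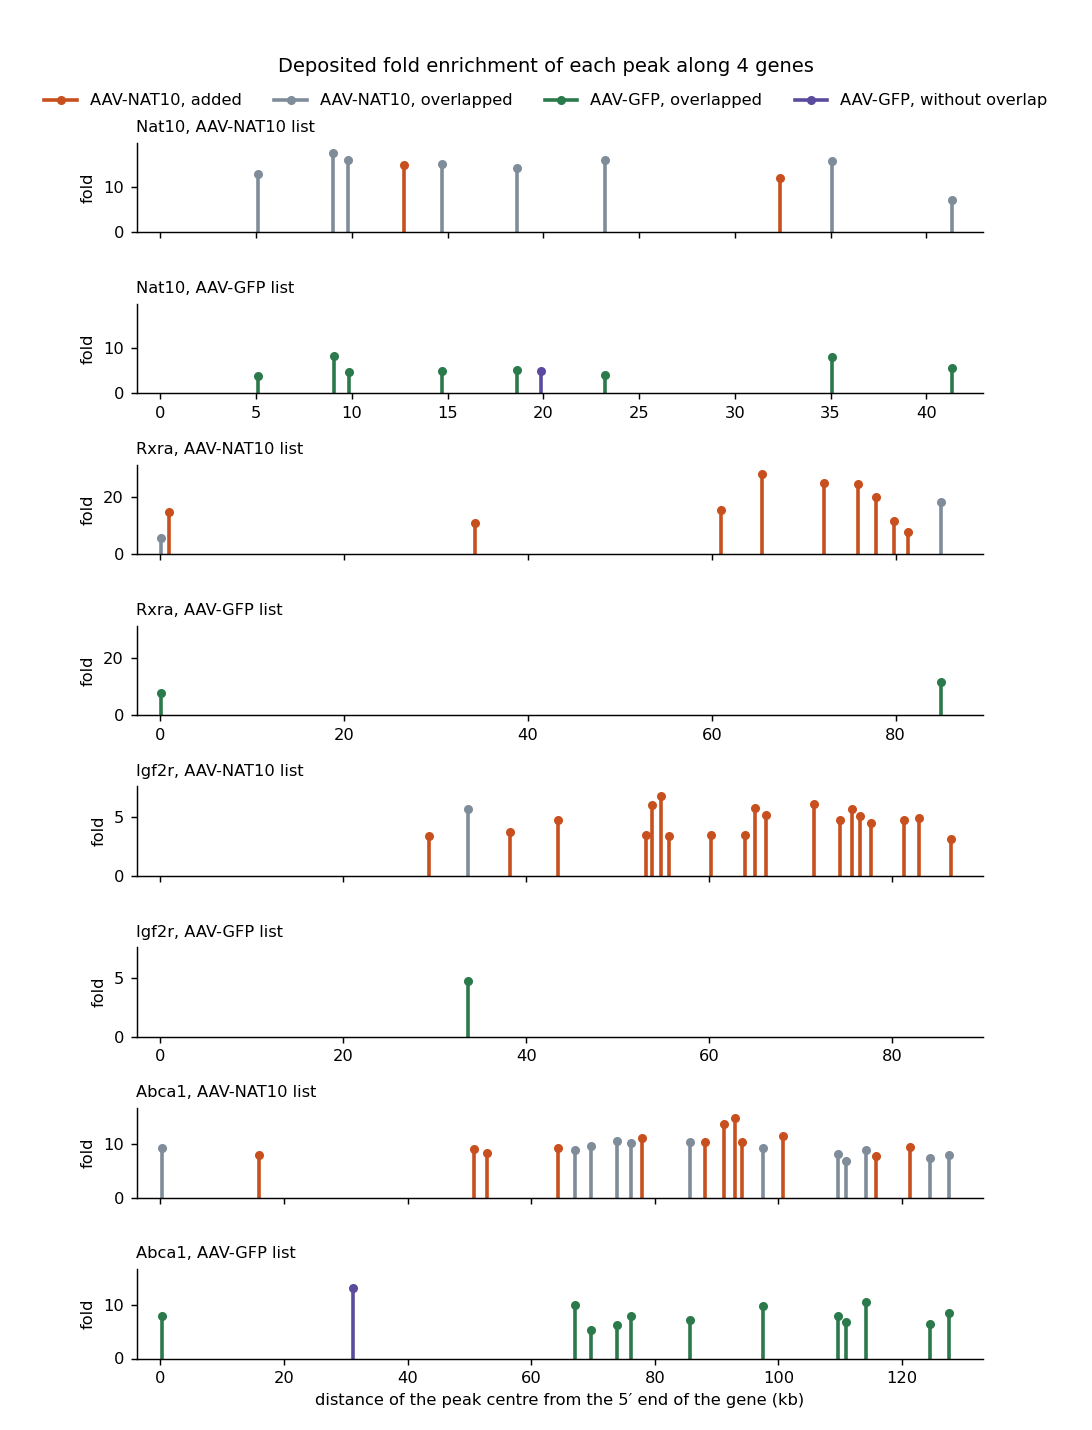
Deposited fold enrichment of each peak (vertical axis) against the distance of its centre from the 5′ end of the gene in kb, for Nat10, Rxra, Igf2r and Abca1, with the AAV-NAT10 list above the AAV-GFP list of each gene and the same vertical scale for both. Added peaks fill the body of Rxra (folds 7.57 to 27.82) and the 3′ part of Igf2r (3.12 to 6.75). In Abca1 they are interleaved with overlapped peaks, up to 4 in a row (7.85 to 14.93), and in Nat10 they number 2.

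Abca1, which exports cellular cholesterol to apolipoprotein A-I, had 12 added peaks among 24 (chr4:53030789-53159988, minus strand). Their folds were between 7.85 and 14.93 with a median of 9.92, beside 6.78 to 10.66 with a median of 9.135 for the 12 overlapped peaks, and 2 of the added peaks scored at the ceiling. AAV-GFP gave 13 peaks with folds between 5.24 and 13.15, of which 1 had no counterpart. The added peaks of Abca1 were interleaved with the overlapped ones and of like fold. Among the lipoprotein and sterol export genes, 8 of the 11 with a peak in both lists held an added peak (25 listed), 33 peaks in all. That share was 72.7% (interval 39.0 to 94.0), beside 59.3% of all shared genes. Abcb11, the canalicular bile salt export pump, had 5 of 20 (5.55 to 7.44) and Abcc3, a basolateral bile salt and conjugate exporter, 4 of 9 (4.61 to 9.71), while Abcg5, Abcg1 and Cyp7a1, the rate-limiting enzyme of bile acid synthesis, had none.

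Genes of fatty acid synthesis and oxidation held added peaks no more often than all shared genes, of which 59.3% did. In fatty acid and triglyceride synthesis 8 of 15 members with a peak in both lists had them (53.3%, interval 26.6 to 78.7). They held 30 peaks in all (26 listed). Acacb, the acetyl-CoA carboxylase at the mitochondrial surface, had 13 of 37 (folds 3.89 to 8.37) and Acaca, its cytosolic relative, 6 of 47 (5.72 to 10.73). Me1, the malic enzyme that supplies NADPH, had 4 of 9 (4.30 to 6.06). The elongase Elovl6 and the regulators Mlxipl and Insig2 had none, and 3 of the 4 AAV-GFP peaks of Mlxipl had no counterpart with AAV-NAT10.

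In cholesterol synthesis and uptake, 10 of 12 members held added peaks (20 listed). That share was 83.3% (interval 51.6 to 97.9), beside 59.3% of all shared genes. Lss, lanosterol synthase, had 6 in a row of 7 (folds 2.56 to 6.12), all upstream of its only AAV-GFP peak. Acat2, a cytosolic thiolase, had 3 of 4 (5.32 to 6.35) and Sqle, squalene epoxidase, 3 of 5 (3.93 to 6.15). Among fatty acid oxidation genes 4 of 9 held them (23 listed), a share of 44.4% (interval 13.7 to 78.8). Cpt1a, the gate of mitochondrial fatty acid import, had 4 of 6 (5.17 to 7.07), lying between its 2 AAV-GFP peaks. Slc25a20, the carnitine carrier, had 2 of 2 (4.83 and 6.64) on either side of an AAV-GFP peak that had no counterpart. The coactivator Ppargc1a had no added peak and 4 unmatched peaks of 7 with AAV-GFP.

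Lipid droplet and fatty acid uptake genes had added peaks in 7 of 11 members with a peak in both lists (23 listed). That share was 63.6%, beside 59.3% of all shared genes. The acyl-CoA synthetases Acsl5 and Acsl3 had 6 of 7 (folds 3.18 to 6.62) and 4 of 6 (3.39 to 6.59). In Plin3, a coat protein of nascent droplets, all 5 AAV-NAT10 peaks were added (3.57 to 5.54) and the only AAV-GFP peak had no counterpart. Insulin and glucose genes had added peaks in 8 of 17 (26 listed), a share of 47.1%. Pik3r1 had 4 of 7, with folds of 6.46, 9.69, 9.75 and 22.59, the strongest at the ceiling. Of its 5 AAV-GFP peaks, 2 had no counterpart. Ptpn1, a phosphatase that switches off the insulin receptor, had 3 of 4 (3.89 to 12.94), and Gsk3b, with 11 AAV-GFP peaks, had none.

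The highest counts of added peaks, beside Igf2r, were in genes of diverse function. Prkdc, the catalytic subunit of DNA-dependent protein kinase, had 19 of 40 AAV-NAT10 peaks added (folds 2.70 to 8.97). Neb, the giant thin filament protein nebulin, had 17 of 90 (2.88 to 9.98), Atm, the DNA damage kinase, 16 of 36 (2.94 to 8.74), and Mdn1, a ribosome assembly ATPase, 15 of 55 (4.05 to 7.31). The count stood at 14 each in Depdc5, a brake on mTORC1, Enpp3, an ectonucleotidase, and Tln2, a talin that links integrins to actin, with 27, 20 and 23 AAV-NAT10 peaks. Syne1, a nuclear envelope spectrin repeat protein, had 13 of 78 (3.57 to 10.32). None of the added peaks in these 8 genes scored at the ceiling.

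As a group, the giant cytoskeletal and linker genes had added peaks in 24 of the 27 members with a peak in both lists (88.9%, interval 70.8 to 97.6), 120 peaks in all, with a median fold of 7.405. These genes also had a median of 35 AAV-GFP peaks, in the range where 92.0% of all shared genes hold an added peak. Ubr4, a ubiquitin ligase, had 12 of 43 (folds 5.47 to 15.10, 3 at the ceiling), and Myh9, the heavy chain of non-muscle myosin, had 9 of 13, of which 8 lay in a row (3.14 to 8.35). Flna, Plec and Ahnak, with 9, 7 and 1 AAV-GFP peaks, had none.

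Several of the longest added peaks lay at the 3′ end of their gene. In Prdm2, a zinc finger methyltransferase, the longest added peak of all spanned 8579 bases (fold 5.43), in a gene whose strand was not at hand. Arid5b, a DNA-binding regulator of fat storage, had 7 added peaks and no overlapped peak (chr10:68092523-68279355, minus strand). They covered 8488 bases, with folds between 3.20 and 11.62, and the 3′-most, of 5258 bases, scored at the ceiling with a fold of 10.19. The only AAV-GFP peak of Arid5b, at its 5′ end, had a fold of 7.71 and no counterpart, so the lists gave this gene a 5′ peak with AAV-GFP and none there with AAV-NAT10.

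Zcchc24, a zinc finger gene, showed the same arrangement. With AAV-NAT10 its only peak was a piece of 3763 bases at the 3′ end, fold 15.79, which scored at the ceiling, and with AAV-GFP its only peak was a piece of 398 bases at the 5′ end, fold 22.18. In Kdm5c, a histone demethylase, 8 AAV-NAT10 peaks matched 8 AAV-GFP peaks and the added peak was the 3′ piece of 6386 bases (fold 7.74, score 105.55). Hal, which starts histidine breakdown, had added peaks at both ends (folds 6.53 and 5.64) and a lone AAV-GFP peak of fold 3.68 between them without counterpart. Rbm47, an RNA-binding protein of messenger RNA editing, had 6 added peaks of 7, the highest a 3′ piece of 2888 bases at the ceiling (fold 19.70). In 216 host genes, as in Arid5b, Zcchc24 and Hal, every AAV-NAT10 peak was an added one.

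Further long additions in genes with 1 AAV-GFP peak were found in Ap3m1, an adaptor subunit of vesicle sorting (2 added, 5470 bases, the longer also over the neighbouring Vcl), Tomm20, an import receptor of the mitochondrial surface (3 added, 4621 bases), Sdf4, a calcium-binding protein of the Golgi (2 added, 4167 bases, the longer also over Tnfrsf4), Ivns1abp (5 added, 3589 bases) and Zfp81 (2 added, 3553 bases). Tle1, a corepressor, had 9 in a row of 13 (folds 3.48 to 13.84) upstream of its 4 AAV-GFP peaks, all in the 3′ part. Mtus1 (6 of 7), Tanc2 (8 of 14) and the endothelin-converting enzyme Ece1 (8 of 15) also had long added stretches, of 5648, 5608 and 4877 bases. The lists carry no strand, so a peak over overlapping genes cannot be given to either; 457 of the 9248 added peaks in RefSeq genes (4.94%) lay over another gene as well.

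The highest folds came from few peaks. Nemf, a ribosome quality control factor, had the highest, 100.48, on a piece of 6 bases, and its other 6 added peaks had folds between 5.0 and 10.34. Tns1, tensin 1 of focal adhesions, had 3 added peaks of 15, with folds of 16.77, 12.57 and 28.86 in gene order, all at the ceiling, beside AAV-GFP peaks between 5.15 and 16.98. Mknk2, a kinase of the cap-binding protein eIF4E, had an added peak of fold 22.40 at its 5′ end, with 1 AAV-GFP peak at the 3′ end (7.71). Next to Rxra, other genes with such a peak were Arfgef2 (27.22), the olfactory receptor Olfr1033 (25.83), Tulp4 (23.01), Pik3r1 (22.59) and Dgkz, a diacylglycerol kinase (22.37). In Arfgef2 and Tulp4 the added peak was the only one, beside 27 and 14 overlapped peaks.

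Regulators of transcription and chromatin held added peaks at about the share of all genes with as many AAV-GFP peaks, which was 81.2% for genes with 10 to 19 of them and 59.3% over all shared genes. Among coactivators and corepressors 18 of 22 had them (81.8%, interval 59.7 to 94.8; 45 peaks; median of 10.5 AAV-GFP peaks): Bcor had 6 of 9 (folds 3.65 to 6.35) and the acetyltransferase Ep300 4 of 22 (6.74 to 11.67), while Ncoa3, Tbl1x and Hdac3 had none. Among DNA and chromatin regulators 21 of 28 had them (75%, 55.1 to 89.3; 41 peaks; median of 14.5 AAV-GFP peaks). Smarca4, the motor of BAF remodelling complexes, had 5 of 24 (3.73 to 9.21), and Arid1b, with 18 AAV-GFP peaks, had none.

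The mTOR and autophagy genes held 65 added peaks in 20 of 25 members (80.0%, interval 59.3 to 93.2; 27 listed; median of 6 AAV-GFP peaks), beside 72.4% of all genes with 5 to 9 AAV-GFP peaks. Besides Depdc5 (folds 2.94 to 13.42), Wdr59, a subunit of the GATOR2 complex, had 8 of 13 (3.26 to 5.08) and Pik3c3, the lipid kinase of autophagosome formation, 7 of 9 (2.96 to 6.43). Ulk2, an autophagy-starting kinase, had 22 AAV-GFP peaks and no added one, nor had Rb1cc1 and Flcn. Translation repressors and RNA silencing genes had added peaks in 16 of 24 (26 listed). That share was 66.7% (interval 44.7 to 84.4), beside 59.3% of all shared genes. Drosha, which cuts primary microRNAs, had 9 of 13 (2.86 to 5.48). Cnot1, the scaffold of the CCR4-NOT deadenylase, had 6 of 26 (4.63 to 14.08), and Dicer1 5 of 19 (4.69 to 16.34). Ago2, with 13 AAV-GFP peaks, had none.

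Stress response and RNA modification genes differed in their counts. In the unfolded protein and integrated stress response 9 of 13 members had added peaks (23 listed). That share was 69.2% (interval 38.6 to 90.9), which spans the 59.3% of all shared genes. Ern1, the endoplasmic reticulum stress sensor IRE1 alpha, had 7 of 13 with folds between 6.37 and 12.62. Its 6 AAV-GFP peaks had folds of 4.97 to 10.77. Eif2ak3, the sensor PERK, had 4 of 8 (3.10 to 4.53). In the m6A machinery, which writes, reads and erases N6-methyladenosine, 1 of 12 members had any (8.33%, interval 0.211 to 38.5; 15 listed), beside 59.3% of all shared genes. It was the helicase and reader Ythdc2, with 3 in a row of 8 (4.45 to 6.04). Fto, Zc3h13 and Ythdc1, with 9, 9 and 6 AAV-GFP peaks, had none, and the median of the list was 2.5 AAV-GFP peaks.

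NAT10 partners and genes of nucleolar ribosome assembly held added peaks in 9 of 13 members (16 listed). That share was 69.2% (interval 38.6 to 90.9), beside 59.3% of all shared genes. There were 26 added peaks with a median fold of 4.45, but also 28 unmatched AAV-GFP peaks. These lay in 11 of the 13 members, where 35.5% of all shared genes held any. Utp20, a component of the small subunit processome, had 10 added of 24 and 3 unmatched of 17 with AAV-GFP. Heatr1, another processome component, had 3 added (folds 2.62 to 5.80) and 8 unmatched AAV-GFP peaks of 14, and Pwp2 4 added of 5 (3.73 to 6.59) with none unmatched. Wdr43, Nolc1 and Nop14 had no added peak, and 3, 3 and 1 unmatched AAV-GFP peaks. In this list, which includes Nat10 itself, peaks without counterpart were therefore about as many with either virus.

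Circadian clock genes had added peaks in 5 of 14 members with a peak in both lists (18 listed), amino acid transporters in 6 of 7 (20 listed), inflammation and NF-kB genes in 9 of 14 (24 listed), and TGF-beta and BMP genes in 10 of 18 (20 listed). Clock, the core activator, had 5 of 17 (folds 3.52 to 5.96) and Csnk1e, the kinase that marks period proteins, 3 of 4 (4.05 to 6.04), while Per2, Per3 and Hlf had none. Slc38a9, the lysosomal arginine sensor, had 4 of 11 (4.05 to 6.43), and Slc3a2, whose start is printed above, 2 of 3 (3.83 and 4.23). Nfkb1 had 2 of 13 and Il6st, the shared receptor chain of interleukin-6 cytokines, 2 of 12 (7.54 and 7.85). The receptor Tgfbr2 had 3 of 7 and the signal transducer Smad3 3 of 7. The shares of these lists lay on both sides of the 59.3% for all shared genes, with intervals that span it, as did those of most lists. The intervals of the giant cytoskeletal genes, of the coactivators and, barely, of the mTOR and autophagy genes lay above it, and that of the m6A machinery below it.

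**Figure D5:**
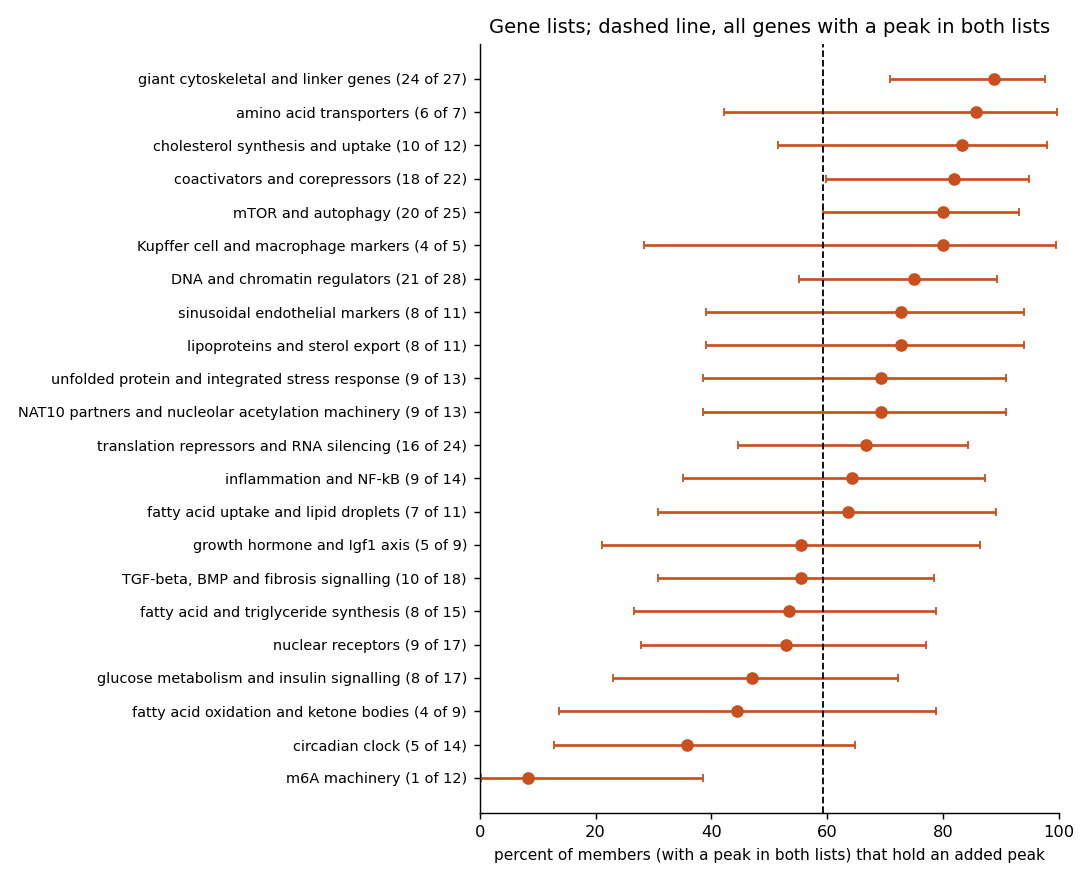
Percent of list members with a peak in both lists that hold at least 1 added AAV-NAT10 peak (horizontal axis), for the 22 lists with at least 5 such members, with exact 95% intervals and the counts beside each name. The dashed line marks the 59.3% of all 7081 shared genes; the giant cytoskeletal genes stand highest (24 of 27) and the m6A machinery lowest (1 of 12), and most intervals include the line.

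Genes that mark other liver cell types also carried added peaks, at shares whose intervals all span the 59.3% of all shared genes. Among sinusoidal endothelial markers 8 of 11 did (12 listed), with 23 peaks. Unmatched AAV-GFP peaks numbered 12, in 9 of these 11 members, where 35.5% of all shared genes held any. The growth factor receptor Kdr had 7 added of 15 (folds 3.02 to 7.07) and the scavenger receptor Mrc1 4 of 25, while Pecam1, Clec4g and Fcgr2b had none. Kupffer cell markers had them in 4 of 5 (8 listed), with Adgre1, the gene of the F4/80 antigen, at 7 of 10 (3.73 to 5.32) and the macrophage growth factor receptor Csf1r at 5 of 9. In stellate cell markers the count was 2 of 3 (10 listed): in Col3a1, a fibrillar collagen, all 8 AAV-NAT10 peaks were added (3.89 to 7.31) and its only AAV-GFP peak (3.12) had no counterpart, while Reln had 6 added of 29 and 12 unmatched of 35 with AAV-GFP.

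Cholangiocyte markers had added peaks in 3 of 3 (7 listed), Pkhd1 with 10 of 38 and Anxa4 with 4 of 4. Pkhd1 also had 6 unmatched of 34 with AAV-GFP, and the only AAV-GFP peak of Anxa4 had no counterpart. Of the lymphocyte and red cell markers only Ptprc had a peak in both lists, with 4 of 11 added and 2 unmatched of 9 with AAV-GFP. None of the 10 hepatocyte markers, Alb and Ttr among them, had an AAV-GFP peak, so none could hold an added one. Peaks measure enrichment over background and not how much RNA a liver holds, and fewer cells of a type and less RNA per cell cannot be told apart in whole liver. The part of the cell mixture in these counts was not tested.

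Abundant hepatocyte products rarely had a peak in both lists, so few could be hosts. Of 25 secreted plasma proteins 4 had a peak in both lists. Of these, 3 held added peaks (75%, interval 19.4 to 99.4), beside 59.3% of all shared genes. Unmatched AAV-GFP peaks numbered 7, in 3 members. Fn1, fibronectin, had 5 added of 7 (folds 7.05 to 10.57, 1 at the ceiling) and 2 unmatched of 4 with AAV-GFP. F5, coagulation factor V, had 4 added of 7 (5.42 to 8.67) and 4 unmatched of 7 with AAV-GFP. Drug metabolism enzymes (1 of 2; 19 listed), ribosomal proteins (1 of 2; 24 listed) and respiratory chain genes (1 of 1; 20 listed) gave few hosts. Ndufs1, a subunit of complex I, had 6 in a row of 7 (2.72 to 5.96), and Ces1d and Rps3 had 1 each. Ces1d and Rps3 have similar copies elsewhere in the genome, so their peaks may be misassigned, which was not tested.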

How the data were processed

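RIP-seq peaks were called by the authors from 1 IP and 1 input library per virus and deposited as a list for each virus, on mm10 per the submitters' processing notes. Peak names begin with MACS, and its version and settings are not stated. Per the file headers, each deposited row gives a peak's borders and length, gene name, fold enrichment (a linear ratio) and a score of −10 times log10 of the p-value; the false discovery rates were not used. No normalization across the lists is stated.

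Unique rows were compared in Python 3.11.15 with pandas 2.3.3, NumPy 2.4.6 and SciPy 1.17.1, and 1 shared base counted as overlap. The procedure was tested on simulated data. Starts are printed counted from 1. Of 4197 host genes, 4007 matched RefSeq (GRCm38.p6) by symbol and 3241 had a strand there. Shares have exact 95% intervals. Without replicates nothing was tested, and the percentages of all peaks and genes serve as background.

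Named were Nat10, the 10 genes with the most added peaks, the longest added length (also among genes with 1 AAV-GFP peak) and the highest fold, and up to 3 genes per list. The members, the 30 lists with 580 genes and the alternatives were chosen with earlier results of these data known. Transcript starts, the printed sequences, the upstream share and the list genes named for lacking an added peak were chosen after their values were seen. Sequence composition of peaks and their exon or UTR class were planned but not computed, since no genome was used here. A few genes that the naming rule selects are not reported here.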

Additional observations from a re-analysis of the deposited data

How the results depend on the processing

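Under 7 alternatives, 30 of 63 values stayed within the limits set for a change and 33 moved, and no direction could reverse because nothing was tested. Counting a peak as shared only when 0.5 of it is covered, or requiring a gap of 100 bases, moved none. The rule was applied anew under each alternative. Against 9660 added peaks, it gave 5902 among the upper 50% of each list by fold. With equal numbers of top peaks by score (16984 each) it gave 3474, and at an AAV-NAT10 score of at least 100 it gave 5944. Against 4197 host genes, there were 2452 in the upper 50% and 1816 with equal numbers. In the upper 50% and with equal numbers the AAV-GFP list was cut as well. AAV-NAT10 peaks overlapped in the full lists can then count as added, so the values of these settings describe in part other peaks. In the order of upper 50%, equal numbers, score of at least 100, and AAV-NAT10 peaks under 100 bases left out, the share of host genes with 1 added peak was 43.9%, 55.5%, 55.6% and 52.6%, the median length 161, 166, 151 and 168 bases, the median fold 7.96, 9.01, 5.96 and 5.10, the median distance 4290, 3998, 2828.5 and 3399 bases, and the share in the 5′-most 10% of the gene 7.72%, 7.15%, 10.0% and 12.3%. Over genes with at least 2 AAV-GFP peaks those values were 41.4%, 138 bases, 5.13 and 2716 bases, without a move in the last. The share upstream of all AAV-GFP peaks, an alternative set added after seeing the data, was 29.2% in the upper 50%, 28.2% at a score of at least 100, 34.0% without peaks under 100 bases and 23.1% over genes with at least 2 AAV-GFP peaks. No paired analysis was possible because each virus has 1 IP and 1 input library. Depth, which is unknown, limits which low-scoring peaks were listed with either virus.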

Other observations

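The pathway annotation deposited with the peaks gives a wider view of the host genes. Over the 66 pathways with at least 50 genes with a peak in both lists, the share of genes with an added peak lay between 50% and 80%, with a median of 63.8%, beside 59.3% of all shared genes. The exact 95% interval lay above 59.3% in 11 pathways and below it in 0. Inositol phosphate metabolism stood highest, with 40 of 50 genes, followed by the lysosome with 43 of 57, purine metabolism with 51 of 68 and RNA transport with 65 of 87. In that order their genes had a median of 4, 2, 2 and 3 AAV-GFP peaks, beside 3 over all shared genes. Pathway shares were not set beside those of genes with as many AAV-GFP peaks. Insulin signaling had 53 of 88, non-alcoholic fatty liver disease 28 of 52, insulin resistance 33 of 65 and microRNAs in cancer 34 of 68. The choice of pathways was made after their values were seen, and no enrichment was tested.

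Added peaks covered 2 of the 31 microRNA hairpins that lay under any AAV-NAT10 peak. Of all AAV-NAT10 peaks 23.3% were added, with 10.3% of the bases, so these hairpins were no more than such shares would give. Mir7019 lay under an added peak of 423 bases in Pink1, a kinase of mitochondrial quality control (fold 3.77), and Mir331 under an added peak of 848 bases in Vezt, an adherens junction protein (fold 3.57).

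By chromosome, added peaks made up 21.7% (chromosome 18) to 27.2% (chromosome 17) of the AAV-NAT10 peaks in genes with an AAV-GFP peak. This range is over the autosomes and the X chromosome, beside 24.6% over all chromosomes.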
